A study of Homo sapiens with 6 samples.

Results

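The solute carrier (SLC) transporters expressed in HEY, an established line of human ovarian cancer cells, were followed in RNA sequencing libraries of oeCSGALNACT2 cells and Vector cells. The members were the protein-coding genes whose symbols carry SLC, a family number, the letter A and a member number, and they were chosen by their level, a mean of at least 1 FPKM over the 6 libraries. FPKM values are fragments corrected for gene length and library size. The rule used no difference between the groups. SLC2A1, SLC2A3, SLC3A2, SLC30A1 and the SLC1A, SLC7A and SLC38A families were left out by name. A total of 129 genes met this rule, out of 304 with such a name at any level and 58735 genes in the whole table. The oeCSGALNACT2 group held 3 libraries of HEY cells that received plasmids for overexpression of CSGALNACT2, an N-acetylgalactosaminyltransferase of chondroitin sulfate synthesis. The Vector group held 3 libraries of HEY cells that received the empty vector, and all cells were kept in the same serum-containing medium. The paper's sequencing methods speak of transfection, and its figure legend of HEY lines with stable overexpression. Its methods describe making such lines by lentiviral infection and screening them with puromycin. No source says whether the cells were a pool or a clone, or whether replicate libraries stem from independent cultures, so the spread between them may be technical.

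Solute carriers are membrane proteins that move small molecules and ions along or against their gradients, either by facilitated diffusion, by exchange, or by coupling to sodium or protons. At the plasma membrane they supply cells with sugars, amino acids, vitamins, phosphate and metals and set the pH by moving bicarbonate and protons. Other families work inside the cell: the SLC25 proteins link the mitochondrial matrix to the cytosol, and the SLC35 proteins bring nucleotide sugars into the Golgi, where glycosaminoglycans such as chondroitin sulfate are built and sulfated.

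The libraries held 15628834 to 18186682 reads. CSGALNACT2 itself was at 535, 453 and 409 FPKM in oeCSGALNACT2 cells, against 15.3, 8.18 and 8.12 FPKM in Vector cells. The sample titles of the oeCSGALNACT2 libraries name CSGALNACT1, whose level was 0.0955 ± 0.043 FPKM in oeCSGALNACT2 cells and 0.183 ± 0.115 FPKM in Vector cells (SD, n = 3 each). PAX8, a transcription factor of ovarian and Müllerian epithelium, was at 25.0 to 58.5 FPKM in oeCSGALNACT2 cells and 23.7 to 52.5 FPKM in Vector cells, whereas the adhesion molecule CDH1 stayed at or below 0.0197 FPKM and MUC16 at or below 0.00134 FPKM in all 6 libraries. WT1, also used to mark serous ovarian tumours, was at 1.67 to 2.11 FPKM in oeCSGALNACT2 cells and 1.02 to 1.28 FPKM in Vector cells, without overlap, and mesothelin (MSLN) was at 3.69 to 7.58 FPKM in oeCSGALNACT2 cells and 2.07 to 5.17 FPKM in Vector cells, with overlap. Of 5 epithelial markers 2 (KRT8 and KRT18) had a mean of at least 1 FPKM, and the 5 together summed to 280 to 450 FPKM in oeCSGALNACT2 cells against 131 to 225 FPKM in Vector cells. Of 3 endothelial markers, CDH5 alone reached a mean of 1 FPKM. Their sum was 6.25 to 10.4 FPKM in oeCSGALNACT2 cells and 19.9 to 31.03 FPKM in Vector cells, with PECAM1 and VWF at or below 0.318 FPKM. The 4 leukocyte markers summed to at most 0.3 FPKM in oeCSGALNACT2 cells and 0.553 FPKM in Vector cells, with CD3E at 0. The part of these markers in the carrier levels below was not tested. In bulk RNA, fewer cells that use a gene and less RNA of it per cell cannot be told apart.

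Replicate 1 stood apart from replicates 2 and 3 in both groups. Its level, on the log2(FPKM + 1) scale, was lower than their mean in both groups for 65 members, higher in both for 50 and of opposite sign for 14. For 11 members it was lower by at least 1 log2 unit in both groups, which is 8.53% of the members and 6.83% of all tested genes. SLC16A3 (MCT4), a lactate exporter of glycolytic cells, was at 10.5, 36.8 and 40.8 FPKM in oeCSGALNACT2 cells and 9.07, 28.3 and 35.6 FPKM in Vector cells. The mitochondrial citrate carrier SLC25A1 was at 11.3, 24.4 and 27.6 FPKM in oeCSGALNACT2 cells and 7.72, 18.7 and 22 FPKM in Vector cells. In both genes replicate 1 was the low library of each group, and the groups overlapped, while each oeCSGALNACT2 library was above the Vector library of the same number. Neither passed by limma (adjusted p = 0.903 for SLC16A3 and 0.743 for SLC25A1), and both did with the replicate number as a term of the fit, the replicate block (0.0299 and 0.00762). SLC33A1, the acetyl-CoA carrier of the endoplasmic reticulum, was the 1 member with the opposite pattern at this size, at 6.29, 2.17 and 3.00 FPKM in oeCSGALNACT2 cells and 5.33, 2.36 and 1.95 FPKM in Vector cells.

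The offset of replicate 1 followed base composition. Across the 129 members its Spearman correlation with the GC content of the longest transcript was -0.92, and the offsets of the 2 groups had a Pearson correlation of 0.91. The points share libraries and are not independent, so these values describe the libraries only. The median GC content was 63.7% in the 11 members that were low in replicate 1, against 50.8% in all members. The difference between the groups correlated less with GC content, with a Spearman correlation of 0.25, and with the replicate offset at -0.25. The offset was larger than the difference between the groups for 96 members (74.4%), as it was for 68.1% of all tested genes. For the carriers with the largest differences, values without replicate 1 are given below.

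**Figure D1:**
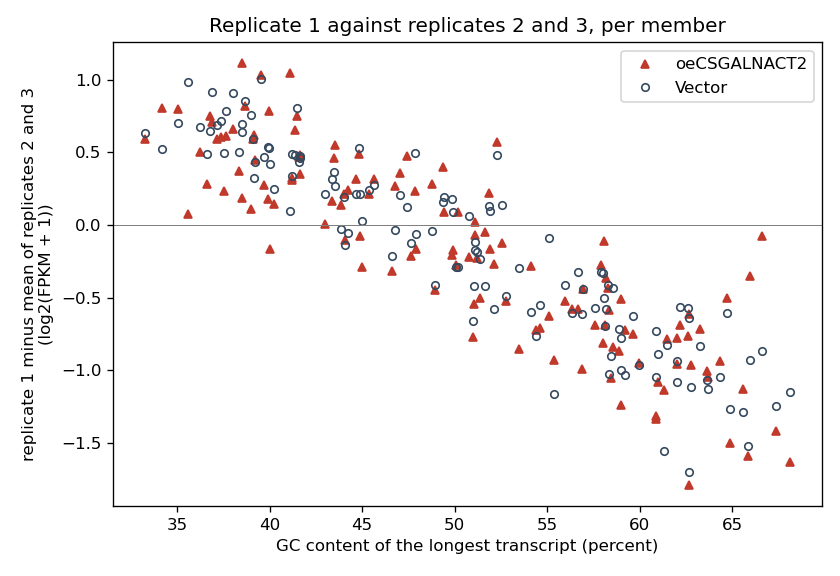
Offset of replicate 1 from the mean of replicates 2 and 3 (y axis, log2(FPKM + 1)) against the GC content of the longest transcript (x axis, percent) for the 129 members, with triangles for oeCSGALNACT2 and circles for Vector. GC-rich members lie below 0 and AT-rich members above 0 in both groups, and the 2 groups' offsets correlate at 0.91.

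The carriers spanned a wide range of levels. The median of the members' mean levels was 5.97 FPKM, with 4 members at 50 FPKM or more, 41 at 10 or more and 22 under 2. The 5 highest members held 33.1% of the summed FPKM of all members. SLC25A5 (ANT2), the ADP/ATP exchanger of dividing cells, led at 222, 207 and 212 FPKM in oeCSGALNACT2 cells and 238, 197 and 221 FPKM in Vector cells. SLC25A6 (ANT3), a second ADP/ATP exchanger, was at 33.9, 91.6 and 104 FPKM in oeCSGALNACT2 cells and 44.3, 102 and 115 FPKM in Vector cells, with replicate 1 the lowest of each group. For both the groups overlapped, with log2 fold changes of -0.03 (SE 0.15) and -0.22 (SE 0.54).

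The next in level were a phosphate carrier of mitochondria, a phosphate carrier of the plasma membrane and a lactate carrier. SLC25A3, which brings phosphate into the matrix, was at 75.8, 64.5 and 73.0 FPKM in oeCSGALNACT2 cells and 61.4, 61.4 and 63.9 FPKM in Vector cells. The groups did not overlap, but the gene did not pass the test (log2 fold change 0.19, SE 0.15, limma adjusted p = 0.599). SLC20A1 (PiT1), a sodium phosphate cotransporter, was at 85.0, 65.5 and 66.7 FPKM in oeCSGALNACT2 cells and 68.6, 60.6 and 58.0 FPKM in Vector cells. SLC16A1 (MCT1), which moves lactate and pyruvate with protons, was at 54.5, 39.2 and 39.2 FPKM in oeCSGALNACT2 cells and 49.3, 39.5 and 37.0 FPKM in Vector cells. Both overlapped between the groups. SLC20A1 did not pass by limma (log2 fold change 0.21, SE 0.18, adjusted p = 0.627) but did with the block (0.0466), and SLC16A1 passed in neither (0.911 and 0.359). Together the members took 0.686% to 0.727% of the reads in oeCSGALNACT2 cells and 0.726% to 0.738% in Vector cells.

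At the lower edge of the rule, the members just inside were SLC25A14 at a mean of 1.05 FPKM, SLC30A4 at 1.06 and SLC43A2 at 1.08, and the genes just outside were SLC25A10 at 0.949, SLC25A35 at 0.883 and SLC40A1 at 0.858. Of the 175 genes with a matching name under the minimum, 56 had no read in any library. A total of 111 members were at 1 FPKM or more in each of the 6 libraries, and 6 members (SLC16A13, SLC16A9, SLC22A3, SLC24A1, SLC25A14 and SLC44A5) had a mean under 1 FPKM in 1 of the groups. SLC25A10, the mitochondrial dicarboxylate carrier, was left out although it averaged 1.37 FPKM in oeCSGALNACT2 cells, against 0.524 FPKM in Vector cells.

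To ask which carriers differed when CSGALNACT2 was overexpressed, the groups were compared by limma on log2(FPKM + 1) over all 11479 genes with a mean of at least 1 FPKM. Of the 129 members, 3 fell in oeCSGALNACT2 cells and 0 rose at a Benjamini-Hochberg adjusted p under 0.05. The share that fell was 2.33% of the members, and 0.845% of all tested genes fell. No member passed in the other direction, where 0.505% of all tested genes passed. At an unadjusted limma p under 0.05, 8 members were higher (7.8% of all tested genes were) and 13 lower (9.26% of all tested genes were). edgeR on the recovered reads also called 0 members higher and 3 lower (0.558% and 0.749% of all tested genes), and DESeq2 called 5 higher and 9 lower (3.92% and 4.89%). Blocked on replicate number, limma called 26 members higher and 24 lower, where it called 21.2% and 22.5% of all tested genes. On replicates 2 and 3 alone the counts were 23 and 27, against 20.7% and 21.1% of all tested genes. Each of these fits included the same 3 members that fell.

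The members as a whole lay around 0. Their median log2 fold change was -0.01, and that of all tested genes was -0.01, with 62 members above 0 and 67 below. The 3 libraries of oeCSGALNACT2 cells lay above all 3 of Vector cells for 13 members, or 10.1%, where 11.2% of all tested genes did so. They lay below for 17 members, or 13.2%, where 12.8% of all tested genes did so. A log2 fold change of at least 1 in size was found in 4 members (3.1%, against 4.43% of all tested genes), namely SLC4A7, SLC16A6, SLC22A15 and SLC2A6.

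**Figure D2:**
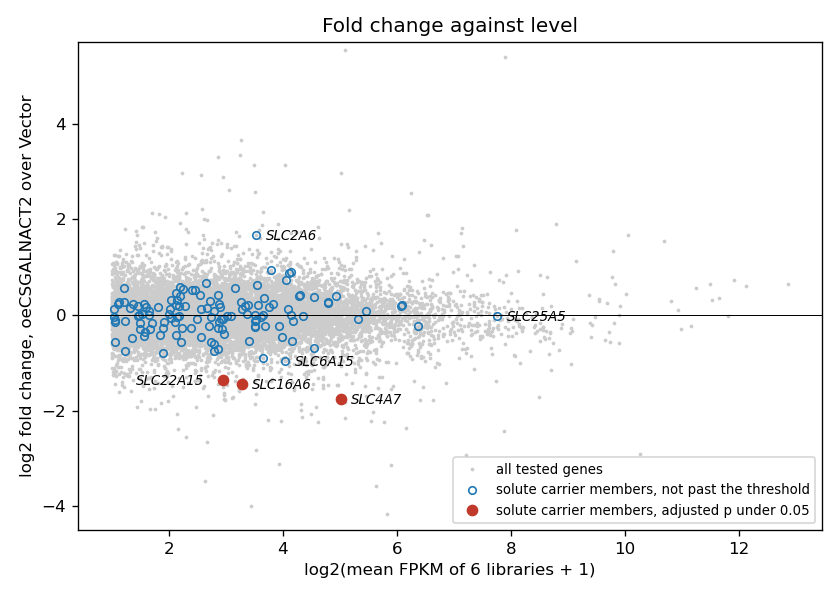
Log2 fold change of oeCSGALNACT2 over Vector (y axis) against log2(mean FPKM + 1) over the 6 libraries (x axis). Grey points are the 11479 tested genes, open circles the members that did not pass the test and filled circles the 3 that fell, which lie between -1.37 and -1.75.

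SLC4A7 (NBCn1), an electroneutral sodium bicarbonate cotransporter that loads cells with base, was the member that fell furthest. It lies on the minus strand of GRCh38 at chr3:27372721-27484420. Its level was 18, 11.7 and 11.5 FPKM in oeCSGALNACT2 cells, against 65.7, 42.6 and 38.4 FPKM in Vector cells. Every oeCSGALNACT2 library was below every Vector library, and replicate 1 was the highest of each group. The mean was 13.7 ± 3.71 FPKM in oeCSGALNACT2 cells and 48.9 ± 14.7 FPKM in Vector cells (SD, n = 3 each), which is 3.56-fold lower. The log2 fold change was -1.75 (SE 0.28, limma adjusted p = 0.0476), and the exact two-sided permutation test gave p = 0.1, the smallest that 3 against 3 libraries allow. With only replicates 2 and 3 of each group the log2 fold change was -1.72 (limma adjusted p = 0.000454). The call was lost when oeCSGALNACT2 replicate 2 or 3 was left out (limma adjusted p = 0.223 and 0.227), and when Vector replicate 1, 2 or 3 was (0.0727, 0.221 and 0.162).

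SLC16A6 (MCT7), a monocarboxylate transporter known from zebrafish to export ketone bodies from the liver, lies on the minus strand at chr17:68267026-68291267. It was at 4.61, 3.69 and 4.24 FPKM in oeCSGALNACT2 cells, against 16.9, 11.5 and 11.3 FPKM in Vector cells. The groups lay far apart, with the highest oeCSGALNACT2 library under the lowest Vector library. The mean was 4.18 ± 0.465 FPKM in oeCSGALNACT2 cells and 13.2 ± 3.2 FPKM in Vector cells (SD, n = 3 each), 3.16-fold lower. The log2 fold change was -1.44 (SE 0.20, limma adjusted p = 0.0349), and -1.32 on replicates 2 and 3 alone (limma adjusted p = 0.000853). The call was lost without oeCSGALNACT2 replicate 1, 2 or 3 (limma adjusted p = 0.0521, 0.194 and 0.19) and without Vector replicate 2 or 3 (0.197 and 0.159). The gene shares 144 exon bases, 3.55% of its exon length, with ARSG on the opposite strand, whose mean was 1.25 FPKM, and whether reads were counted by strand is not stated in the sources used here.

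SLC22A15, a transporter of zwitterions such as ergothioneine and carnitine, lies on the plus strand at chr1:115976498-116070054. It was at 4.02, 3.11 and 2.78 FPKM in oeCSGALNACT2 cells, against 12.8, 9.15 and 8.63 FPKM in Vector cells. Again no oeCSGALNACT2 library reached the lowest Vector library. The mean was 3.3 ± 0.64 FPKM in oeCSGALNACT2 cells and 10.2 ± 2.25 FPKM in Vector cells (SD, n = 3 each), 3.08-fold lower. The log2 fold change was -1.37 (SE 0.21, limma adjusted p = 0.0418), and -1.33 on replicates 2 and 3 alone (limma adjusted p = 0.000839). The call was lost without oeCSGALNACT2 replicate 2 or 3 (limma adjusted p = 0.207 and 0.226) and without Vector replicate 1, 2 or 3 (0.0615, 0.214 and 0.164).

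**Figure D3:**
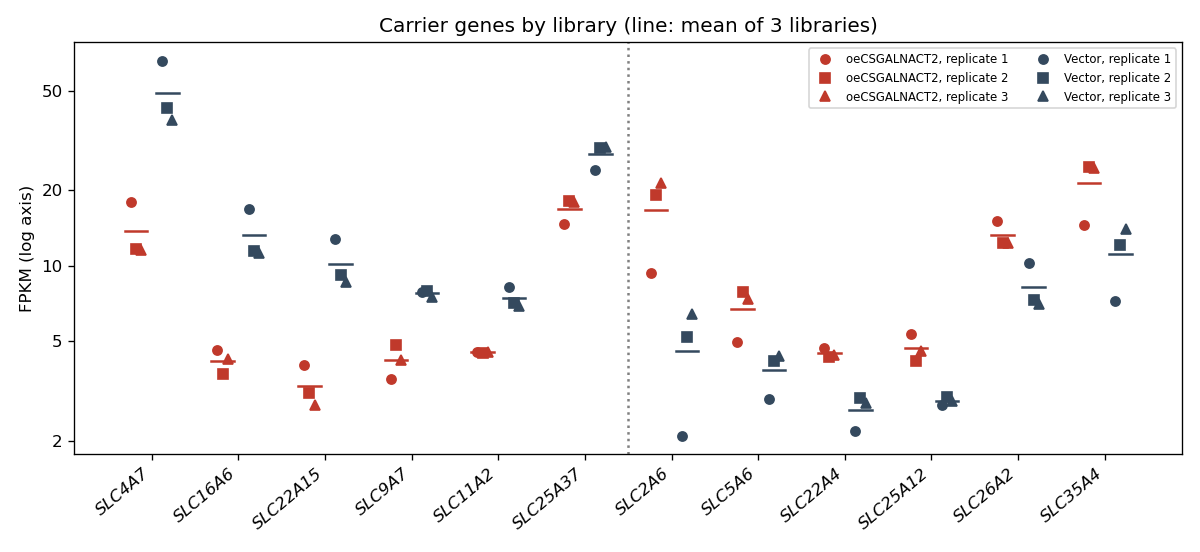
FPKM (log axis) of 12 carriers in each library, with circles, squares and triangles for replicates 1, 2 and 3 and a line at the mean of 3 libraries; for each gene oeCSGALNACT2 stands left of Vector. Left of the dotted line are 6 carriers whose oeCSGALNACT2 libraries were all lower, and right of it 6 whose oeCSGALNACT2 libraries were all higher, of which SLC4A7, SLC16A6 and SLC22A15 passed the test.

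Promoters are shown for SLC4A7 and SLC22A15, which fell, and for SLC2A6, because their log2 fold changes were at least 1 in size. They are given as 300 bases from 250 before to 50 after the annotated start, taken from RefSeq on GRCh38.p14. That of SLC4A7 covers chr3:27484335-27484634 on the minus strand, that of SLC22A15 covers chr1:115976263-115976562 on the plus strand, and that of SLC2A6, the member with the highest log2 fold change, covers chr9:133479050-133479349 on the minus strand. Capitals mark matches on either strand to TGCNCNC, a loose form of the metal response element that also takes in other sequences.
SLC4A7: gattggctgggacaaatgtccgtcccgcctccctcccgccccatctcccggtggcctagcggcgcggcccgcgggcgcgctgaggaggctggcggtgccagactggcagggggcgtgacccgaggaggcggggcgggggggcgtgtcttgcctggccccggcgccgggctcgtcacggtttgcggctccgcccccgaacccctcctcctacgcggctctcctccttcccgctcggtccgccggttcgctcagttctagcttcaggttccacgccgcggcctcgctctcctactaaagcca
SLC22A15: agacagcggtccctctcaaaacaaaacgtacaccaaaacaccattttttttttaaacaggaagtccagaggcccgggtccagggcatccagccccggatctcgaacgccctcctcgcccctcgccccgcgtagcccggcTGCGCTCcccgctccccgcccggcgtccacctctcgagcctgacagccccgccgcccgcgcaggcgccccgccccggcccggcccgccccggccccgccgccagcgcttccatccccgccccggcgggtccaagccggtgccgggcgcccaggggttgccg
SLC2A6: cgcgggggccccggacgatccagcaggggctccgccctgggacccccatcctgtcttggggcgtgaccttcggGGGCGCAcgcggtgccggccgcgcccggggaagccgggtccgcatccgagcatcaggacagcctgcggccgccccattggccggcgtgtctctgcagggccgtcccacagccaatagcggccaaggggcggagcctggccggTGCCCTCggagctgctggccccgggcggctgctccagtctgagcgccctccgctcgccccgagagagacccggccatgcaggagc

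All 3 promoters are GC-rich, with 73% G or C for SLC4A7, 73% for SLC22A15 and 76% for SLC2A6, and 36, 37 and 33 CG pairs. A total of 101 of the 129 members had a promoter in the RefSeq table, and SLC16A6 was not among them. TGCNCNC, the loose form of the metal response element, was in 61.4% of these members' promoters and in 55.9% of all 35116 promoters. The antioxidant response element TGACNNNGC was in 16.8% against 13.3%, the cyclic AMP response element TGACGTCA in 3.96% against 1.85%, and the ATF4 element TGATGNAA in 1.98% against 3.62%. The sterol element TCACNCCAC was in 1.98% against 1.13%, and the E2F site TTTGGCGC in 0.99% against 0.652%. All were searched on both strands, where the palindrome TGACGTCA reads alike. The 35116 promoters were not limited to the tested genes, so they are not a matched set for the members. The 4 members with TGACGTCA were SLC25A25, SLC25A33, SLC25A36 and SLC31A1. SLC4A7 had none of these 6 motifs in this window.

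The counts by substrate given from here on stand beside these shares of all tested genes. At an unadjusted limma p under 0.05, 7.8% were higher and 9.26% lower. DESeq2 called 3.92% higher and 4.89% lower, and limma with the block 21.2% and 22.5%. The carriers of ions and pH numbered 15, of which 1 (SLC4A7) fell and 0 rose by limma. DESeq2 called 0 higher and 2 lower, and limma with the block 3 higher and 4 lower. SLC9A7 (NHE7), a sodium and potassium proton exchanger of the trans-Golgi network, was at 3.51, 4.85 and 4.22 FPKM in oeCSGALNACT2 cells and 7.87, 7.92 and 7.51 FPKM in Vector cells. The groups did not overlap, and its log2 fold change of -0.76 (SE 0.16) did not pass (limma adjusted p = 0.0763) but did with the replicate block (0.00345). The chloride bicarbonate exchanger SLC4A2 (AE2) was at 4.81, 11.8 and 11.7 FPKM in oeCSGALNACT2 cells and 2.26, 8.23 and 8.96 FPKM in Vector cells, with replicate 1 low in both groups (log2 fold change 0.55, limma adjusted p = 0.662, with the block 0.0128).

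Of the 8 monocarboxylate transporters, 1 (SLC16A6) fell and 0 rose by limma. DESeq2 called 1 higher and 2 lower, and limma with the block 3 and 4. SLC16A9 (MCT9), a carnitine transporter, was at 1.22, 0.584 and 0.457 FPKM in oeCSGALNACT2 cells and 2.31, 1.71 and 1.77 FPKM in Vector cells. Its log2 fold change was -0.76 (SE 0.21, limma adjusted p = 0.146, with the block 0.0105). It averaged 0.754 FPKM in oeCSGALNACT2 cells and 1.93 FPKM in Vector cells. SLC16A9 thus met the minimum of 1 FPKM only through the group where it was high. The lactate carriers given above had log2 fold changes of 0.07 (SE 0.21) for MCT1 and 0.25 for MCT4.

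Of 5 transporters of nucleosides and organic ions, 1 (SLC22A15) fell and 0 rose by limma. DESeq2 called 1 higher and 1 lower, and limma with the block 2 higher and 1 lower. SLC22A4 (OCTN1), the other ergothioneine transporter of the family, was at 4.71, 4.33 and 4.39 FPKM in oeCSGALNACT2 cells and 2.19, 2.97 and 2.84 FPKM in Vector cells. The order of the groups was thus the reverse of that for SLC22A15, without overlap. The log2 fold change of 0.58 (SE 0.15) did not pass by limma (adjusted p = 0.129). SLC22A4 did pass by DESeq2 (adjusted p = 0.0401) and by limma with the block (0.0115). The nucleoside transporter SLC29A1 (ENT1) averaged 14.4 FPKM in oeCSGALNACT2 cells and 12.1 FPKM in Vector cells (log2 fold change 0.23, limma adjusted p = 0.662, with the block 0.0277).

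Among the 8 carriers of sugars and polyols 0 passed in either direction by limma. SLC2A6 was higher and SLC50A1 lower at an unadjusted limma p under 0.05, by DESeq2 and with the block, and no other sugar carrier was called by these. SLC2A6 (GLUT6), a hexose transporter of lysosomes, had the highest log2 fold change of all members. It was at 9.32, 19.2 and 21.4 FPKM in oeCSGALNACT2 cells, against 2.1, 5.2 and 6.42 FPKM in Vector cells. The lowest oeCSGALNACT2 library was above the highest Vector library, and replicate 1 was the lowest of each group by about 1 log2 unit (offsets of -1.04 in oeCSGALNACT2 and -1.13 in Vector cells). The mean was 16.6 ± 6.44 FPKM in oeCSGALNACT2 cells and 4.57 ± 2.23 FPKM in Vector cells (SD, n = 3 each), 3.64-fold higher. The log2 fold change of 1.68 (SE 0.43) did not pass in limma (adjusted p = 0.123) or edgeR (0.126), and passed with the block (limma, 0.000334), in DESeq2 (0.00373) and on replicates 2 and 3 alone (limma, log2 fold change 1.65, adjusted p = 0.00094). SLC50A1 (SWEET1), a sugar uniporter, was at 10.2, 6.23 and 6.82 FPKM in oeCSGALNACT2 cells and 19.1, 12.7 and 14.1 FPKM in Vector cells, without overlap (log2 fold change -0.91, SE 0.24, limma adjusted p = 0.132, with the block 0.000841).

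The 6 carriers of nucleotide sugars and sulfate serve glycosylation and sulfation in the Golgi, and 0 passed in either direction by limma. At an unadjusted limma p under 0.05, 2 were higher and 0 lower, DESeq2 called 0, and the block called 2 in each direction. SLC26A2, the sulfate transporter needed for chondroitin sulfation in cartilage, was at 15.1, 12.3 and 12.3 FPKM in oeCSGALNACT2 cells, against 10.3, 7.33 and 7.06 FPKM in Vector cells. SLC35A4, a Golgi family member, was at 14.6, 24.9 and 24.6 FPKM in oeCSGALNACT2 cells, against 7.25, 12.1 and 14.1 FPKM in Vector cells. In both the oeCSGALNACT2 libraries were all above the Vector libraries, SLC35A4 by a small margin between its lowest oeCSGALNACT2 and highest Vector library. The log2 fold changes were 0.64 for SLC26A2 (SE 0.20, limma adjusted p = 0.179, with the block 0.00275) and 0.89 for SLC35A4 (SE 0.31, limma adjusted p = 0.223, with the block 0.00111). SLC35A4 shares 7.83% of its exon bases with APBB3 on the opposite strand.

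The other members of that group lay closer together or lower. SLC35A5 was at 6.30, 5.30 and 5.52 FPKM in oeCSGALNACT2 cells and 10.8, 6.61 and 6.57 FPKM in Vector cells, without overlap (log2 fold change -0.39, limma adjusted p = 0.431, with the block 0.039). SLC35A3, which carries UDP-N-acetylglucosamine, was at 2.36, 1.06 and 1.05 FPKM in oeCSGALNACT2 cells and 4.02, 1.69 and 1.64 FPKM in Vector cells, with replicate 1 the highest of each group and the groups overlapping (log2 fold change -0.44, limma adjusted p = 0.569, with the block 0.0283). The UDP-galactose carrier SLC35A2 averaged 3.74 ± 1.03 FPKM in oeCSGALNACT2 cells and 3.06 ± 0.581 FPKM in Vector cells, and the CMP-sialic acid carrier SLC35A1 2.66 ± 1.78 FPKM in oeCSGALNACT2 cells and 2.89 ± 1.26 FPKM in Vector cells (SD, n = 3 each). Both overlapped between the groups, and 55.5% of the exon bases of SLC35A1 are shared with AL049697.1 on the same strand.

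**Figure D4:**
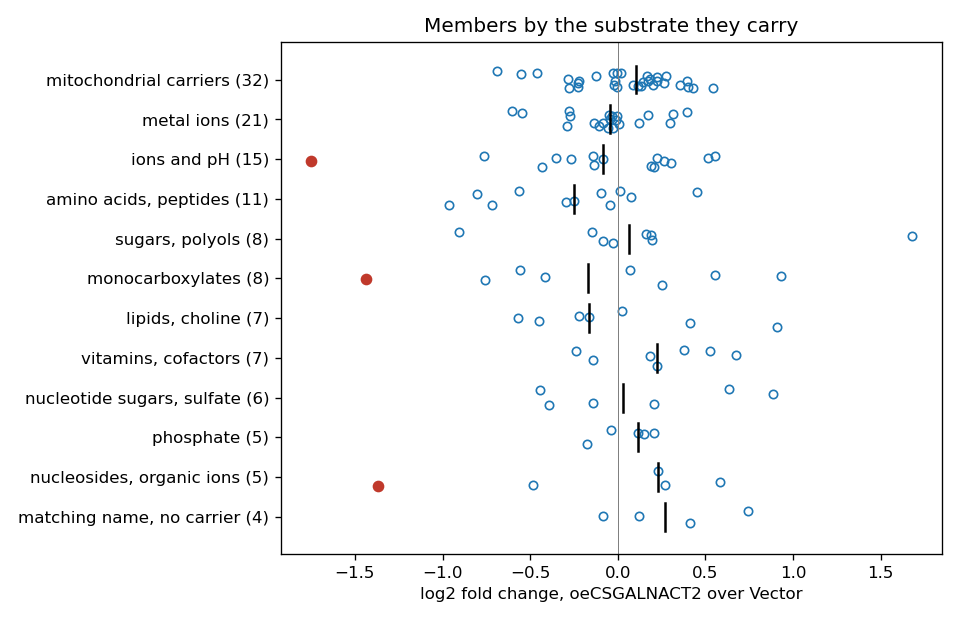
Log2 fold change of oeCSGALNACT2 over Vector (x axis) for each of the 129 members, in rows by the substrate carried, with the number of members in brackets and a bar at the row's median. Filled points are the 3 members that fell, 1 each among ions and pH, monocarboxylates and organic ions, and the rows' medians lie between -0.25 (amino acids) and 0.27 (genes with a matching name that encode no carrier).

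The mitochondrial carriers were the most numerous, with 32 members, and 0 passed in either direction by limma. At an unadjusted limma p under 0.05, and by DESeq2, 2 were higher and 1 lower, and the block called 5 higher and 3 lower. The oeCSGALNACT2 libraries lay above all Vector libraries for 5 of them and below for 2, where 11.2% and 12.8% of all tested genes did so. SLC25A37 (mitoferrin 1), which brings iron into the matrix, was at 14.7, 18.1 and 18 FPKM in oeCSGALNACT2 cells and 24.1, 29.6 and 29.9 FPKM in Vector cells. It lay lower in every oeCSGALNACT2 library (log2 fold change -0.69, SE 0.18, limma adjusted p = 0.122, with the block 0.00118). SLC25A12 (aralar), an aspartate glutamate carrier of the malate aspartate shuttle, was at 5.33, 4.16 and 4.57 FPKM in oeCSGALNACT2 cells and 2.79, 3.00 and 2.88 FPKM in Vector cells. SLC25A44, a carrier of branched-chain amino acids, was at 5.24, 6.02 and 5.98 FPKM in oeCSGALNACT2 cells and 4.24, 3.87 and 3.94 FPKM in Vector cells. Neither overlapped between the groups, with log2 fold changes of 0.54 for SLC25A12 (SE 0.15, limma adjusted p = 0.14, with the block 0.011) and 0.43 for SLC25A44 (SE 0.14, limma adjusted p = 0.199, with the block 0.0151). The NAD carrier SLC25A51 averaged 4.25 ± 0.711 FPKM in oeCSGALNACT2 cells and 2.98 ± 0.503 FPKM in Vector cells (SD, n = 3 each, limma adjusted p = 0.339, with the block 0.0727). Transcripts of the mitochondrial genome took 4.6% to 4.82% of the reads in oeCSGALNACT2 cells and 2.77% to 3.61% in Vector cells, and the part of this difference in the carrier levels was not tested. SLC25A5 has 9 pseudogenes in the annotation, which together held 2 reads against its own 33310 over the 6 libraries, and how reads were shared out among near-identical copies is not stated, which leaves its level uncertain.

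Of the 21 transporters of zinc, iron and other metals, 0 passed in either direction by limma. At an unadjusted limma p under 0.05, and by DESeq2, 1 was lower (SLC11A2), and the block called 1 higher and 2 lower. SLC11A2 (DMT1), the proton-coupled iron importer, was at 4.53, 4.49 and 4.53 FPKM in oeCSGALNACT2 cells and 8.26, 7.07 and 6.92 FPKM in Vector cells. The oeCSGALNACT2 libraries were nearly equal and all below the Vector libraries (log2 fold change -0.61, SE 0.14, limma adjusted p = 0.104, with the block 0.00395). SLC39A7 (ZIP7), which releases zinc from the endoplasmic reticulum, was at 24.5, 37.9 and 38.9 FPKM in oeCSGALNACT2 cells and 23.9, 23.6 and 27.5 FPKM in Vector cells, where replicates 2 and 3 of oeCSGALNACT2 stood above the Vector libraries and replicate 1 among them (log2 fold change 0.39, SE 0.22, limma adjusted p = 0.443, with the block 0.0547). SLC30A4 (ZnT4), a zinc transporter of vesicles, overlapped between the groups, with a log2 fold change of -0.04 (SE 0.18).

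Of the 11 carriers of amino acids, peptides and related solutes, 0 passed in either direction by limma, with 4 lower at an unadjusted p under 0.05, and DESeq2 called 1 lower (SLC15A4). The block called 1 higher and 4 lower, and the oeCSGALNACT2 libraries were all below the Vector libraries for 4, as they were for 12.8% of all tested genes. SLC6A15 (B0AT2), a sodium-coupled carrier of branched-chain amino acids and proline, was at 13.6, 8.19 and 8.21 FPKM in oeCSGALNACT2 cells and 30.8, 16.6 and 15.3 FPKM in Vector cells. SLC43A1 (LAT3), a facilitator of large neutral amino acids, was at 3.62, 5.42 and 4.49 FPKM in oeCSGALNACT2 cells and 5.87, 9.40 and 9.13 FPKM in Vector cells. SLC15A4, a histidine and peptide carrier of lysosomes, was at 3.86, 4.67 and 4.63 FPKM in oeCSGALNACT2 cells and 7.18, 6.53 and 7.16 FPKM in Vector cells. All of these were separate between the groups, with log2 fold changes of -0.96 for SLC6A15 (SE 0.33, limma adjusted p = 0.205, with the block 0.00131), -0.72 for SLC43A1 (SE 0.23, limma adjusted p = 0.186, with the block 0.00317) and -0.57 for SLC15A4 (SE 0.15, limma adjusted p = 0.127, with the block 0.00709). SLC36A1 (PAT1), a proton-coupled amino acid carrier of lysosomes, had the highest log2 fold change of the group at 0.45, with 2.89, 4.75 and 4.57 FPKM in oeCSGALNACT2 cells and 1.99, 2.97 and 3.06 FPKM in Vector cells (limma adjusted p = 0.371, with the block 0.0112).

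The 7 vitamin and cofactor transporters, 7 lipid and choline transporters and 5 phosphate transporters held 0 members that passed by limma or DESeq2. Only SLC5A6 had an unadjusted limma p under 0.05, and the block called 3, 2 and 1 of these groups higher and 1, 2 and 0 lower. SLC5A6, the sodium-dependent transporter of biotin and pantothenate, was at 4.97, 7.87 and 7.34 FPKM in oeCSGALNACT2 cells and 2.94, 4.15 and 4.36 FPKM in Vector cells, without overlap (log2 fold change 0.67, SE 0.22, limma adjusted p = 0.195, with the block 0.00288). It shares 7.37% of its exon bases with ATRAID on the opposite strand. SLC23A2, an ascorbate transporter, averaged 5.00 ± 1.03 FPKM in oeCSGALNACT2 cells and 6.07 ± 1.11 FPKM in Vector cells (SD, n = 3 each, log2 fold change -0.24, limma adjusted p = 0.632, with the block 0.0417). SLC27A4 (FATP4), which takes up and activates long-chain fatty acids, was at 10.7, 27.1 and 29 FPKM in oeCSGALNACT2 cells and 6.04, 12.7 and 14.4 FPKM in Vector cells. Each oeCSGALNACT2 library exceeded the Vector library of the same number, but oeCSGALNACT2 replicate 1 lay below Vector replicates 2 and 3. The log2 fold change was 0.91 (SE 0.46, limma adjusted p = 0.39, with the block 0.00153). SLC44A5, a choline transporter-like gene, was at 0.731, 0.588 and 0.625 FPKM in oeCSGALNACT2 cells and 2.47, 1.24 and 0.882 FPKM in Vector cells. Its log2 fold change was -0.57 (limma adjusted p = 0.322). With means of 0.648 FPKM in oeCSGALNACT2 cells and 1.53 FPKM in Vector cells, it met the minimum only through the Vector group. SLC37A4, the glucose 6-phosphate carrier of the endoplasmic reticulum, averaged 2.05 ± 0.589 FPKM in oeCSGALNACT2 cells and 2.52 ± 1.06 FPKM in Vector cells (SD, n = 3 each).

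Another 4 members carry a matching symbol but encode no carrier, and 0 passed by limma (at an unadjusted p under 0.05 also 0) or DESeq2, while the block called 2 higher. SLC9A3R1 (NHERF1), a scaffold that tethers transporters to ezrin, was at 13, 24 and 22.3 FPKM in oeCSGALNACT2 cells and 7.22, 12.9 and 14.3 FPKM in Vector cells. Replicate 1 was low in both groups, and the oeCSGALNACT2 value of that replicate lay below Vector replicate 3 (log2 fold change 0.74, SE 0.33, limma adjusted p = 0.33, with the block 0.00193). SLC4A1AP, a nuclear adaptor protein, averaged 6.53 ± 0.851 FPKM in oeCSGALNACT2 cells and 7.05 ± 1.69 FPKM in Vector cells (SD, n = 3 each).

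Genes that work with these carriers, or transport solutes under other names, were counted in the same fit. Of 24 tested SLC genes with another letter in the symbol or from the SLCO family, 28 tested carriers with other names, 10 tested subunits and scaffolds of carriers and 4 tested genes of the osmotic response, 0 passed in either direction by limma, and the medians of the log2 fold changes were 0.08, 0.04, -0.03 and 0.01. At an unadjusted limma p under 0.05 these lists held 1, 2, 2 and 0 genes higher and 1, 1, 0 and 0 lower. Of all tested genes, 7.8% were higher and 9.26% lower at that threshold. With the replicate block 6, 12, 2 and 0 of these were called higher and 7, 2, 4 and 1 lower. The block called 21.2% of all tested genes higher and 22.5% lower. SLC35D1 and SLC35D2, which carry nucleotide sugars such as UDP-glucuronic acid and UDP-N-acetylgalactosamine or UDP-N-acetylglucosamine, overlapped between the groups (log2 fold changes 0.08, SE 0.18, and -0.02, SE 0.17). Of the 20 tested SLC genes that the rule left out by name, 0 rose and 1 fell by limma, the glucose transporter SLC2A3 (GLUT3), at 5.16, 4.84 and 5.43 FPKM in oeCSGALNACT2 cells and 10.3, 10.4 and 9.69 FPKM in Vector cells (log2 fold change -0.86, limma adjusted p = 0.0489). Their median log2 fold change was -0.27. With the block 4 of the 20 were higher and 11 lower, where 21.2% and 22.5% of all tested genes were. NPC1, the lysosomal cholesterol transporter, had the lowest log2 fold change of the 28 carriers with other names and was named for that after its value was seen. It was at 12.4, 18.8 and 18.9 FPKM in oeCSGALNACT2 cells, against 28.4, 38 and 39.4 FPKM in Vector cells, without overlap (log2 fold change -1.04, limma adjusted p = 0.0924, with the block 0.000669).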

How the data were processed

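TRIzol-extracted RNA of HEY cells was made into SMARTER mRNA libraries, which Novogene sequenced. The authors deposited whole read counts per gene, not normalized, and FPKM values, in which the counts are scaled by gene length and library size. The aligner and the counter are not given in the sources read. In the submitters' processing notes the build is mm10, but all 58735 genes have the coordinates of GENCODE release 29 on GRCh38, which were used. Counts of only 1310 genes were at hand, so the main comparison was made on the deposited FPKM values. Reads were recovered from FPKM, gene length and 1 constant per library, and 100% of the values were whole within 0.01 of a read and equal to the counts for all 1310 genes. A table of group means was not used, and 12 symbols that had become dates were restored by gene ID.

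Groups were taken from the sample descriptions. The groups were compared, over genes averaging 1 FPKM or more, by limma 3.58.1 in R 4.3.3 (log2(FPKM + 1), trend, Benjamini-Hochberg adjustment over 11479 genes, threshold 0.05). The fold change is on this scale, which understates changes of low genes. The recovered reads were tested by edgeR 4.0.16 (quasi-likelihood) and by DESeq2 1.42.0. The genes named are those past the threshold, the 12 higher and 12 lower with the smallest p, the 5 with the highest mean, 3 on each side of the minimum, the extremes of each role group, and the carriers of nucleotide sugars and sulfate. Some genes of this rule are not reported here. SLC16A3, SLC25A1, SLC33A1, SLC29A1, SLC35D1, SLC35D2, SLC2A3, NPC1 and the members listed with a motif were added after their values were seen. Members and lists were chosen with earlier results of these data known. The limma, edgeR and DESeq2 steps were run on simulated reads that lacked the shared offset of replicate 1. That run does not check the fits under such an offset.

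Deviations from the group means correlated at 0.81, 0.632 and 0.686 between libraries of the same number. Libraries 2 and 3 of different numbers also correlated, at 0.59 and 0.682. These values set replicate 1 apart in both groups and do not show that numbers 2 and 3 pair the libraries. The labels do not say that equal numbers were matched. The limma, edgeR and DESeq2 fits were made without the number. The fit with it as a block is an alternative that treats equal numbers as matched. The p-values speak only of the spread among these libraries.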

Additional observations from a re-analysis of the deposited data

How the results depend on the processing

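The number of members called lower stayed at 3 with a pseudocount of 0.1, protein-coding genes only and TMM rescaling. It also stayed at 3 with centring on the median difference and both size factors of edgeR. These fits called 0.723% to 1.05% of their tested genes lower. The number was 0 (with 0 higher) when all 28102 genes with any FPKM above 0 were tested. That fit called 0.0391% of the 28102 genes higher and 0.0712% lower. edgeR on all genes with a read called 1 member higher, SLC2A6, and 3 lower (0.491% and 0.808% of the 28102 genes). With the replicate block, limma called 26 higher and 24 lower and edgeR 35 and 31 (25.6% and 24.7% of all tested genes). DESeq2 called 5 and 9, and replicates 2 and 3 alone gave 23 and 27. Removing the GC trend of each library, an alternative chosen after seeing the data, gave 13 higher and 17 lower (12.1% and 12.4% of all tested genes), and 26 and 27 with the block (20.9% and 21.5%). Leaving out 1 library at a time gave 0 to 1 higher and 0 to 2 lower. Of all tested genes, these fits called 0.00871% to 0.619% higher and 0.0348% to 0.767% lower. Groups that did not overlap numbered 51 above and 42 below on replicates 2 and 3 alone (36.6% and 37.6% of all tested genes). With 1 library left out they numbered between 13 and 40 above and between 17 and 33 below. Without oeCSGALNACT2 replicate 1 there were 40 above and 26 below (27.3% and 28.1% of all tested genes). Without Vector replicate 1 there were 23 and 33 (20.3% and 22%), and without Vector replicate 2 there were 13 and 17 (12% and 14%). None of the 3 members that fell turned its direction under these alternatives. Leaving out libraries could not have turned it, because the groups did not overlap for any of the 3. With 3 libraries a group, and replicates that differ by GC content, a member that did not pass is not shown to be alike in both groups.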
